A study of Rattus norvegicus with 36 samples.

Results

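Cholesterol and fatty acid synthesis genes were followed across mimic and oxygen conditions in H9C2 cells, a rat cardiac myoblast line. The genes were chosen by symbol for their place in the pathway, and 31 of the 32 symbols were found among the 24275 genes listed in the deposited tables. *Scd* was not listed under that symbol. *Elovl6* was listed under 2 identifiers, of which ENSRNOG00000048949 passed the filter on low counts in the comparisons of 2 groups and ENSRNOG00000010468 did not. Thus 31 members were tested in each comparison of 2 groups, with 7 in the mevalonate and isoprenoid steps, 3 in the squalene steps, 8 in the steps after lanosterol, 6 in SREBP control and sterol transport, and 7 in fatty acid synthesis and desaturation.

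Each culture received a mimic at 25 nmol/L for 24 h, followed by 24 h of hypoxia (below 0.2% oxygen) or of normoxia. The mimics were a mimic control (MC), miR-125b and 4 of its 3′ isomiRs, one with an added base (Plus A) and 3 shortened ones (Trim AGU, Trim AG and Trim A), with 3 libraries in each of the 12 groups. Every group was thus transfected, and counts of 33 libraries from 11 groups were used. Normoxia MC was used only as a group mean given by the authors, and a mimic was therefore tested against MC in hypoxia alone. According to the study's methods, hypoxic cells were kept in serum-free low-glucose medium, whereas normoxic cells received fresh medium under normal conditions. The effect of oxygen therefore cannot be told apart from that of the medium, and each result on hypoxia below refers to the combined exposure. The labels do not state that the 3 libraries of a group came from separate cultures, so the p-values measure the spread between these libraries, which may be technical.

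As background, cholesterol is built from acetyl-CoA through mevalonate, farnesyl diphosphate, squalene and lanosterol. Squalene epoxidation, lanosterol demethylation, later sterol oxidations and fatty acid desaturation use molecular oxygen. Transcription of these genes is driven by the SREBP factors (*Srebf1* and *Srebf2*). SCAP carries their precursors to the Golgi for cleavage when sterols are scarce, and the INSIG proteins hold SCAP in the endoplasmic reticulum when sterols are abundant. *Insig1* is itself an SREBP target, whereas *Insig2* is much less dependent on SREBP.

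The mimics differ only at the 3′ end, so their sequences are given to show that all carry one seed. The mature sequence is rno-miR-125b-5p of RefSeq (GRCr8, chr11:29732588-29732609, plus strand), and the isomiRs were derived from it by the change in their names. Capitals mark the seed, bases 2 to 8 from the 5′ end.
miR-125b (22 nt): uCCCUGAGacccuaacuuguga
Plus A (23 nt): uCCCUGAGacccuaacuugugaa
Trim A (21 nt): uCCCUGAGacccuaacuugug
Trim AG (20 nt): uCCCUGAGacccuaacuugu
Trim AGU (19 nt): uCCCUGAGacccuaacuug

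Totals per library ranged from 28361216 to 42672584 counts, with Hypoxia Trim AG the deepest group (39940087 to 42672584). Of the myoblast and muscle markers, 9 of 9 reached 1 CPM (counts scaled to the library total), with a sum of 2714 to 4971 CPM. Of 6 cardiac markers 2 reached it, with a sum of 10.6 to 20.05 CPM. The 1 endothelial marker of 4 that the tables list also did, at 0.690 to 4.46 CPM, as did 2 of 3 immune markers (sum at most 3.00 CPM) and 1 of 4 adipocyte markers (at most 1.83 CPM), but 0 of 2 epithelial markers. Hypoxia Trim AGU replicate 2 stood apart from replicates 1 and 3 of its group, with root mean square log2 distances of 1.05 and 0.993 against 0.582 between those replicates. *Cav1*, which separated the other Plus A libraries (93.9 to 100 CPM) from the other miR-125b libraries (241 to 282 CPM), stood at 269 CPM in the library labelled Normoxia Plus A replicate 1 and at 102 CPM in the library labelled Normoxia miR-125b replicate 1. The counts of called members that rest on these 3 libraries are given with and without them. In this bulk RNA, levels are shares of a library's counts, so cell number and total RNA per cell cannot be read from them.

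The members spanned a wide range of expression. On the FPKM scale, which allows for gene length, *Fdps* (farnesyl diphosphate synthase) was highest, with a median level of 46.0 over the 33 libraries. It was followed by *Sqle* (squalene epoxidase, 34.9), *Acly* (ATP citrate lyase, 34.6), *Fads1* (a fatty acid desaturase, 32.8), *Cyp51* (lanosterol demethylase, 25.5), *Hmgcs1* (HMG-CoA synthase, 25.3) and *Fasn* (fatty acid synthase, 24.2). The ranges of these genes over the libraries overlapped. The lowest were *Dhcr7* (2.18), *Hsd17b7* (1.16), *Stard4* (0.699) and *Elovl6* (0.198).

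Hypoxia was accompanied by lower transcripts across most of the pathway, whichever miR-125b mimic was present. Under MC this comparison was not tested, since no normoxia MC values per library were at hand. Members called lower in hypoxia numbered 23 of 31 under miR-125b, 24 under Plus A, 24 under Trim A, 25 under Trim AG and 23 under Trim AGU, and 0 were called higher under any of these mimics. A gene was called at an adjusted p below 0.05 in edgeR's quasi-likelihood test and a change of at least 1.5-fold. Of all genes tested, 11.5%, 12.8%, 14.5%, 17.8% and 13.4% were called lower in the same comparisons. The median log2 fold change of the members was -1.22, -1.26, -1.44, -1.16 and -1.30, whereas that of all genes lay between 0.004 and 0.020. These comparisons share no libraries with each other. In 22 members every one of the 15 hypoxia libraries of these mimics lay below every one of the 15 normoxia libraries. Among the 13141 genes whose mean reached 1 CPM, which hold 30 members, 6.95% did so. Without the 3 libraries that stood apart or went against their labels, these numbers were 24 members and 7.59%. Without the library labelled replicate 1 in normoxia, 23 members were called under miR-125b, of which 22 were among the 23 above, with *Mvk* lost and *Acss2* gained, and 24 under Plus A, all among the 24 above. Under Trim AGU 24 members were called without replicate 2 in hypoxia, with *Acly* lost and *Mvk* and *Acaca* gained. Without regard to fold, 25, 26, 25, 26 and 24 members were lower, and 26.1%, 25.3%, 24.2%, 27.3% and 14.8% of all genes were.

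**Figure D1:**
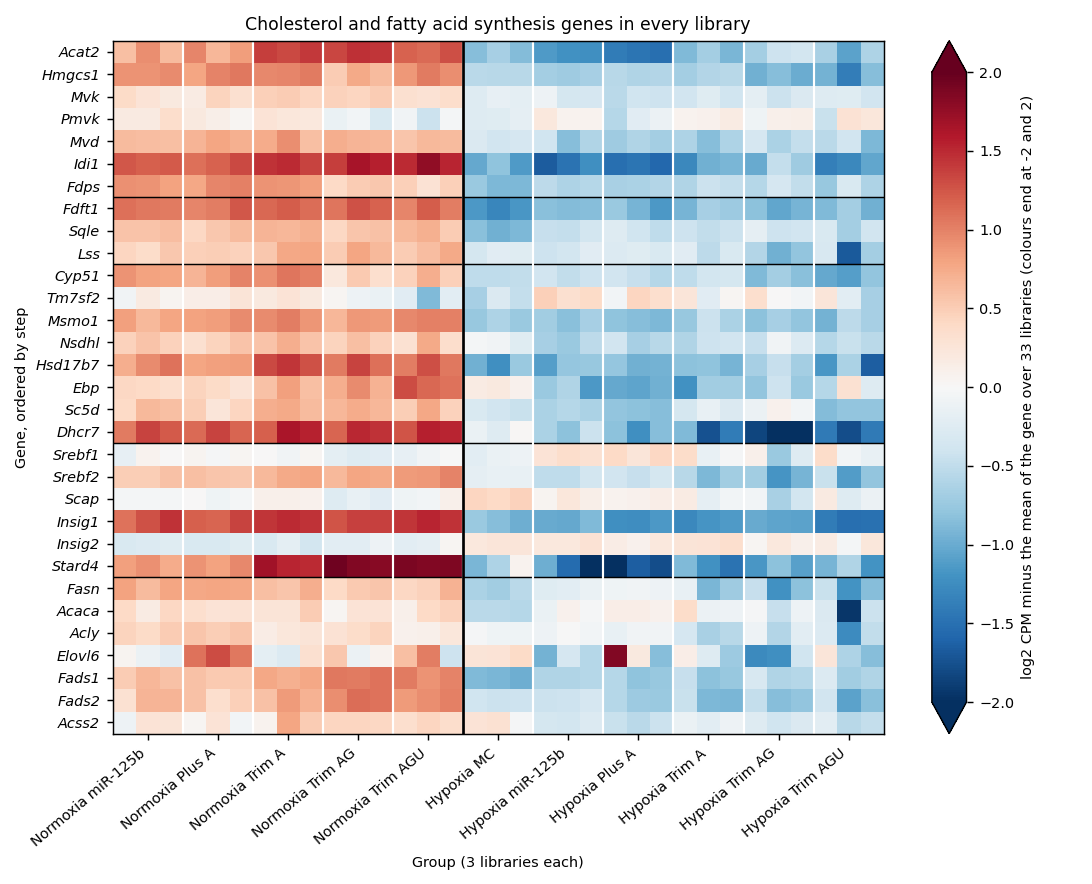
Heat map of the 31 tested members (rows, ordered by step, black lines between role groups) in the 33 libraries (columns, 3 per group). Colour gives log2 CPM minus the mean of the gene over all libraries; most rows are red in the 5 normoxia groups at the left and blue in the 6 hypoxia groups at the right, and *Pmvk*, *Tm7sf2*, *Srebf1*, *Scap*, *Insig2* and *Elovl6* do not follow this split.

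The genes that control the pathway split into those that fell and those that did not. *Insig1*, which encodes the sterol-sensitive brake on SREBP, stood at 85.7, 97.9 and 110 CPM in normoxia and 20.04, 19.9 and 21.9 CPM in hypoxia under miR-125b. Its groups did not overlap under any of the 5 mimics, and its log2 fold change was between -2.89 and -2.33, or 5.02- to 7.44-fold lower (adjusted p at most 8.16e-05, edgeR). *Srebf2*, the SREBP gene tied most closely to sterol synthesis, fell from 106, 106 and 114 CPM to 53.0, 53.3 and 58.7 CPM under miR-125b (log2 fold change -1.06 ± 0.057 SE, adjusted p = 9.03e-07). Its fall was deeper under Trim AG, from 119, 130 and 128 CPM to 46.7, 33.2 and 39.9 CPM (log2 fold change -1.65 ± 0.11 SE, adjusted p = 6.73e-06). *Stard4*, a carrier of cholesterol between membranes, fell from 4.28, 4.56 and 4.07 CPM to 1.24, 0.839 and 0.549 CPM under miR-125b, and its log2 fold change over the 5 mimics was -2.87 to -2.38. The lowest *Stard4* count was 17 reads, so its levels in hypoxia rest on few reads. These 3 genes were called lower under each of the 5 mimics.

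In contrast, the other control genes were not called in either direction. *Srebf1*, the SREBP gene tied more closely to fatty acid synthesis, had log2 fold changes of -0.03 to 0.26. It was slightly higher in hypoxia under miR-125b (0.26 ± 0.063 SE, adjusted p = 0.00699) and Plus A (0.22 ± 0.063 SE, adjusted p = 0.0157), below the fold threshold. *Scap* stayed within -0.19 to 0.10, with a smallest adjusted p of 0.119. *Insig2* stood at 15.9, 16.4 and 16.7 CPM in normoxia and at 22.8, 22.9 and 24.1 CPM in hypoxia under miR-125b (log2 fold change 0.43 ± 0.066 SE, adjusted p = 0.000559). It passed the adjusted p with no fold threshold under 4 mimics (0.30 to 0.50), but not under Trim AGU (0.27, adjusted p = 0.195). Thus the 2 INSIG genes moved in opposite directions in the same libraries. Reads of *Srebf1* and *Scap* could include those of genes that overlap them on the opposite strand by 588 and 286 bases, since the libraries were not stranded.

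**Figure D2:**
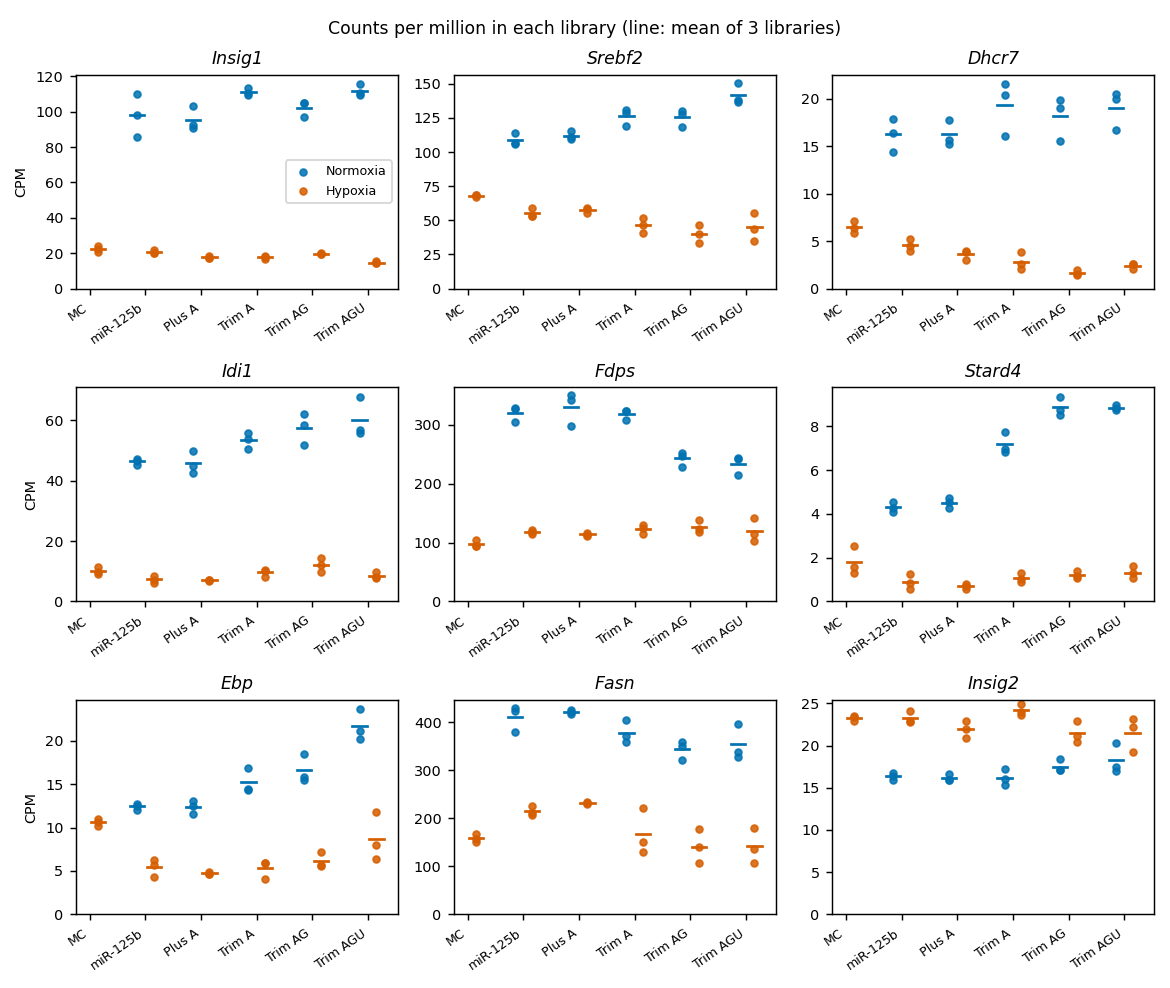
CPM (y axis, linear from 0) of 9 members in each library, by mimic (x axis), with normoxia in blue and hypoxia in orange and a line at the mean of 3 libraries. *Insig1*, *Srebf2*, *Dhcr7*, *Idi1*, *Fdps*, *Stard4* and *Fasn* are lower in hypoxia without overlap, *Insig2* has higher means in hypoxia, and *Dhcr7* in hypoxia is highest under MC and lowest under Trim AG.

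In the mevalonate and isoprenoid steps, 5 of 7 genes were lower under Trim AGU and 6 under each other mimic. *Idi1*, the isomerase that makes dimethylallyl diphosphate, had the deepest fall of this group. Its levels under miR-125b were 47.2, 45.4 and 46.6 CPM in normoxia and 6.26, 7.16 and 8.46 CPM in hypoxia, and its log2 fold change lay between -2.82 and -2.24 over the mimics (adjusted p at most 0.000161). *Idi1* overlaps *Wdr37* on the opposite strand by 100 bases. *Acat2*, the cytosolic acetoacetyl-CoA thiolase that begins the pathway, fell from 45.4, 57.4 and 46.7 CPM to 13.6, 13.03 and 12.9 CPM under miR-125b (log2 fold change -2.001 ± 0.094 SE), and from 59.2, 47.8 and 53.4 CPM to 11.4, 10.9 and 10.6 CPM under Plus A (-2.39 ± 0.088 SE). *Hmgcs1* fell from 233, 232 and 241 CPM to 77.3, 76.0 and 78.5 CPM under miR-125b, with log2 fold changes of -1.96 to -1.57 over the mimics. *Mvd*, the mevalonate diphosphate decarboxylase, fell by 1.15 to 1.53 on the log2 scale.

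*Fdps* depended on the mimic. It fell from 329, 326 and 305 CPM to 122, 114 and 118 CPM under miR-125b (log2 fold change -1.52 ± 0.050 SE), but from 229, 248 and 253 CPM to 118, 139 and 124 CPM under Trim AG (-0.93 ± 0.094 SE). The hypoxia levels overlapped between both mimics and the normoxia levels did not. The weakest members here were kinases. *Mvk*, the mevalonate kinase, had log2 fold changes of -0.89 to -0.57 and was called under 4 mimics. *Pmvk*, the phosphomevalonate kinase, ranged from -0.52 to 0.29 and was not called under any mimic, although it passed the adjusted p under Plus A (-0.52 ± 0.12 SE, adjusted p = 0.00612). In the fit without Hypoxia Trim AGU replicate 3 or without Normoxia Trim AGU replicate 3, *Fdps* was not called under Trim AGU, with an adjusted p of up to 0.0556.

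The 3 squalene genes were called lower under each of the 5 mimics. *Fdft1* (squalene synthase) fell from 84.8, 82.3 and 81.4 CPM to 22.1, 21.6 and 22.02 CPM under miR-125b, and its log2 fold change was -2.12 to -1.86. *Sqle*, one of the oxygen-dependent steps, fell less, from 177, 177 and 182 CPM to 86.5, 85.5 and 92.7 CPM under miR-125b (-1.10 ± 0.047 SE), with a range of -1.21 to -0.84. *Lss* (lanosterol synthase) fell by 0.86 ± 0.072 (SE) on the log2 scale under miR-125b and by 1.42 ± 0.11 (SE) under Trim AG.

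After lanosterol, 7 of 8 genes were lower under each of the 5 mimics. *Dhcr7*, which makes cholesterol from its last precursor, had the deepest fall of all members under Trim AG. It stood at 15.6, 19.9 and 19.1 CPM in normoxia and at 1.96, 1.55 and 1.38 CPM in hypoxia (log2 fold change -3.47 ± 0.17 SE, adjusted p = 1.13e-06), a difference of 11.1-fold. Under miR-125b it went from 14.4, 17.9 and 16.4 CPM to 4.50, 3.97 and 5.20 CPM (-1.91 ± 0.14 SE, adjusted p = 4.45e-06). The lowest *Dhcr7* count was 59 reads, so these levels rest on few reads beside those of *Fdps*. *Hsd17b7*, a sterol ketoreductase, fell from 10.4, 12.2 and 13.4 CPM to 2.96, 3.71 and 3.75 CPM under miR-125b, and its log2 fold change was -2.27 to -1.76. Its locus overlaps a gene on the opposite strand along 19943 bases, so its reads are uncertain.

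*Msmo1* (the C4-methylsterol oxidase) fell by 1.55 to 1.82 on the log2 scale, *Cyp51* by 1.15 to 1.48, *Ebp* (a sterol isomerase) by 1.25 to 1.59, *Nsdhl* (a sterol dehydrogenase) by 0.76 to 1.22 and *Sc5d* (a sterol desaturase) by 0.70 to 1.34. *Nsdhl* and *Sc5d* fell least under Trim AG. *Ebp* under Trim AGU was not called without normoxia replicate 1, normoxia replicate 2 or hypoxia replicate 3, with an adjusted p of up to 0.0643. The exception was *Tm7sf2*, a sterol reductase, with 6.78, 8.11 and 7.40 CPM in normoxia and 9.93, 8.90 and 9.33 CPM in hypoxia under miR-125b. Its log2 fold changes were -0.27 to 0.29, with a smallest adjusted p of 0.0923. *Tm7sf2* overlaps *Vps51* on the same strand by 1066 bases.

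In fatty acid synthesis 4 of 7 genes were lower under miR-125b, 6 under Trim AG and 5 under the other mimics, and the median log2 fold change was -0.59 under miR-125b against -1.52 in the mevalonate steps. *Fads1* and *Fads2*, the desaturases of polyunsaturated fatty acids, had the deepest changes. *Fads1* went from 204, 229 and 216 CPM to 94.3, 94.3 and 96.6 CPM under miR-125b (log2 fold change -1.27 ± 0.049 SE) and from 299, 294 and 304 CPM to 115, 94.1 and 96.3 CPM under Trim AG (-1.55 ± 0.093 SE). *Fads2* went from 43.5, 56.1 and 56.3 CPM to 26.1, 26.4 and 27.7 CPM under miR-125b (-1.04 ± 0.095 SE) and from 67.1, 76.4 and 74.6 CPM to 25.2, 19.5 and 20.3 CPM under Trim AG (-1.74 ± 0.11 SE). In both genes the normoxia level was higher under Trim AG than under miR-125b without overlap.

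*Fasn* fell from 430, 380 and 423 CPM to 207, 211 and 225 CPM under miR-125b, with log2 fold changes of -1.30 to -0.97. *Acly* fell by 0.59 to 0.80 on the log2 scale and was called under 5 mimics, close to the fold threshold. *Acss2* (acetyl-CoA synthetase) fell by 0.57 to 0.75 and was called under 4. *Acaca* (acetyl-CoA carboxylase) was not called under any mimic. It had log2 fold changes of -0.43 to -0.29 under 4 mimics with adjusted p of 0.00211 to 0.0486, and of -1.04 under Trim AGU (adjusted p = 0.0560), where replicate 2 in hypoxia stood at 10.1 CPM against 31.9 and 28.8 CPM. *Elovl6*, an elongase, was near the limit of detection, with 8 counts in its lowest library, and was called lower under Trim AG (-1.08 ± 0.40 SE, adjusted p = 0.0436), a call lost without any of 5 of the 6 libraries. *Acly* under Trim AGU was likewise lost without any of 5 libraries, with an adjusted p of up to 0.107, and *Acss2* there without any normoxia library. Under miR-125b, *Acly* and *Mvk* lost their calls without either of 2 libraries each.

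**Figure D3:**
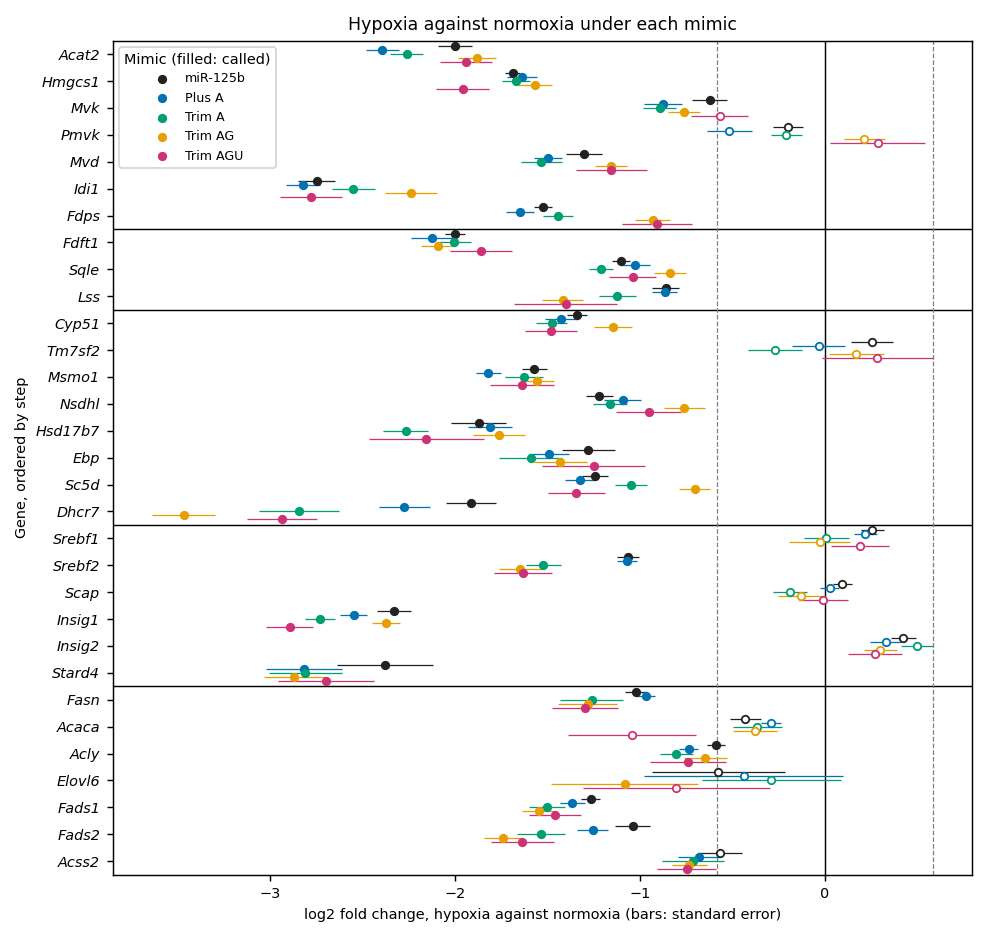
Log2 fold change of each member between hypoxia and normoxia (x axis; points are edgeR estimates, bars standard errors) under each of 5 mimics, with dashed lines at 1.5-fold. Filled points are called; 22 members are filled for 5 mimics on the left of the zero line, and *Pmvk*, *Tm7sf2*, *Srebf1*, *Scap*, *Insig2* and *Acaca* carry only open points.

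Other lipid genes, from lists of neighbouring functions, moved in both directions. Under miR-125b 11.5% of all genes were called lower and 9.34% higher. Of 17 other mevalonate and sterol genes (prenyl transfer, ubiquinone, dolichol and regulators), 4 were lower and 2 higher, with a median log2 fold change of 0.21. *Fntb*, a subunit of farnesyltransferase, was the highest of these (0.80 ± 0.12 SE, adjusted p = 0.000365). The summed level of this list was nevertheless lower in hypoxia. It was 726 to 878 CPM over all hypoxia libraries, MC included, and 991 to 1066 CPM over all normoxia libraries. The sums of each of the other lipid lists overlapped between hypoxia and normoxia. Of 16 tested genes of sterol uptake, transport, storage and efflux, 4 were lower and 2 higher (median 0.01). Of 17 other fatty acid and lipid synthesis genes, 4 were lower and 1 higher (median -0.20). *Slc25a1*, the mitochondrial citrate carrier, fell most (-1.07 ± 0.058 SE, adjusted p = 9.90e-07), and *Lpin1*, a phosphatidate phosphatase, was the one that rose (0.72 ± 0.22 SE, adjusted p = 0.0209). Of 16 genes of fatty acid oxidation and lipid droplets, 3 were lower and 2 higher (median -0.04), and *Fabp3*, a fatty acid binding protein, fell by 1.39 ± 0.46 (SE; adjusted p = 0.0305). Of the other fatty acid and lipid synthesis genes, 3 of 17 were lower under Plus A, 7 under Trim A, 7 under Trim AG and 6 under Trim AGU, with medians of -0.30, -0.29, -0.22 and -0.49, against the 12.8%, 14.5%, 17.8% and 13.4% of all genes given above. The other mevalonate and sterol genes had 4, 4, 4 and 3 of 17 lower under these mimics, with medians of 0.13 to 0.21. Between 3 and 4 genes of sterol uptake, transport, storage and efflux, and 0 to 4 of fatty acid oxidation and lipid droplets, were lower under each of the 5 mimics. In the comparison under miR-125b 5 of 6 tested hypoxia markers were higher, and their summed level was 2551 to 2631 CPM in hypoxia and 1484 to 1674 CPM in normoxia. The muscle markers moved both ways, with 4 of 9 higher and 2 lower, and sums of 3352 to 3429 CPM in hypoxia and 2714 to 3081 CPM in normoxia. Their part in the changes of the lipid genes was not tested.

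The promoters of the members were searched for letters that the choice of genes did not use. RefSeq promoters (GRCr8, 250 bases before to 50 after the start) were at hand for 24 of the 31 genes. A member counted as matching if any of its promoters did, whereas the shares of all promoters below are per promoter. The CCAAT box (letters CCAAT on either strand, so also ATTGG) was found in 19 of 24, or 79.2%, against 37.5% of all 33469 promoters and 38.0% of the 21851 promoters of protein-coding genes. Of the members called lower under each of the 5 mimics it was found in 14 of 18 (77.8%), and of the other members in 5 of 6 (83.3%). These 5 were *Insig2*, *Srebf1* and *Tm7sf2*, and also *Acss2* and *Mvk*, which were each called lower under 4 mimics. The match thus did not separate the members called lower under all 5 mimics from the other members. The E-box CACGTG was found in 3 of 24 (12.5%; *Insig1*, *Sc5d* and *Scap*) against 6.42%. The sterol element letters TCACNCCAC were found in 0 of 24 members and in 1.12% of all promoters. A match is a description of these windows only, and the lack of one says nothing of the factor. Windows of 30 bases before the start are shown for 3 members that fell under each mimic, for *Srebf2*, and for *Insig2* as a member that did not fall, with the CCAAT box (CCAAT or ATTGG) or the E-box in capitals. They are written on the strand of the gene, 5′ to 3′.
Insig1, CCAAT box (chr4:8057945-8057974): cgccctcctcccATTGGctcccgcggcctc
Insig1, E-box (chr4:8057831-8057860): gctgggtgagatCACGTGgcaccggcgaca
Idi1, CCAAT box (chr17:66547573-66547602): tgcctccagctgATTGGtgagcccgggcat
Hmgcs1, CCAAT box (chr2:53382159-53382188): ctgagtccggtgATTGGctgagatagctgc
Srebf2, CCAAT box (chr7:115543166-115543195): cttcgcgctccgATTGGctaatgcaggcct
Insig2, CCAAT box (chr13:35040142-35040171): taccattgagacATTGGtctgcttcagtcc

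The mimics were next compared with MC in hypoxia, to ask what miR-125b and its isomiRs did to the pathway in the exposed cells. Few members crossed the thresholds. With miR-125b, 1 was higher and 2 were lower. Plus A and Trim AG each had 2 higher and 5 lower, Trim A had 1 and 2, and Trim AGU had 0 and 1. In these comparisons 21.9%, 24.8%, 28.1%, 37.2% and 23.8% of all genes tested were called in either direction. The shares of members (9.68%, 22.6%, 9.68%, 22.6% and 3.23%) lay below these, with Plus A only slightly. These differences were not tested. The median log2 fold changes of the members were -0.02, -0.06, -0.01, -0.08 and -0.11. All 5 comparisons share the MC libraries, so agreement between them is not independent.

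With no fold threshold, 21, 22, 15, 18 and 6 members passed the adjusted p, or 67.7%, 71.0%, 48.4%, 58.1% and 19.4%, against 59.5%, 56.6%, 52.1%, 59.4% and 29.9% of all genes. The share of members was above that of all genes with miR-125b and Plus A and below it with Trim AGU. With Trim A and Trim AG it was close to that of all genes. Whether these shares differ from those of all genes, or between the mimics, was not tested. The directions were mixed within the pathway. *Sqle* was higher with each of the 5 mimics, from 66.7, 61.5 and 64.1 CPM with MC to 86.5, 85.5 and 92.7 CPM with miR-125b (log2 fold change 0.50 ± 0.045 SE, adjusted p = 3.23e-06) and 105, 89.6 and 91.6 CPM with Trim AG (0.64 ± 0.080 SE, adjusted p = 0.000181), the only one called. *Fdft1* was higher by 0.30 to 0.52 and *Fads1* by 0.24 to 0.55, each passing the adjusted p with 5 mimics. *Tm7sf2* rose from 4.50, 5.88 and 5.11 CPM with MC to 9.93, 8.90 and 9.33 CPM with miR-125b (0.90 ± 0.13 SE, adjusted p = 0.000122) and was called with 3 mimics. *Acaca* rose from 26.9, 26.9 and 26.4 CPM to 42.8, 42.5 and 41.6 CPM with Plus A (0.68 ± 0.052 SE, adjusted p = 2.77e-06) and was called with Trim A as well.

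*Ebp* and *Dhcr7* were each called lower with 4 mimics. *Ebp* fell from 10.7, 10.9 and 10.1 CPM with MC to 5.71, 6.29 and 4.29 CPM with miR-125b (log2 fold change -0.93 ± 0.14 SE, adjusted p = 0.000207) and to 4.68, 4.59 and 4.92 CPM with Plus A (-1.14 ± 0.11 SE, adjusted p = 1.34e-05). With Trim AGU its value was -0.11, with a 95% confidence interval from -0.77 to 0.54. *Dhcr7* passed the adjusted p with 5 mimics. It stood at 6.38, 5.84 and 7.10 CPM with MC, 4.50, 3.97 and 5.20 CPM with miR-125b (-0.46 ± 0.15 SE, adjusted p = 0.0176), 3.98, 3.00 and 3.88 CPM with Plus A (-0.81 ± 0.16 SE), 3.80, 2.09 and 2.64 CPM with Trim A (-1.14 ± 0.22 SE), 1.96, 1.55 and 1.38 CPM with Trim AG (-1.92 ± 0.18 SE, adjusted p = 3.93e-05) and 2.63, 2.04 and 2.61 CPM with Trim AGU (-1.27 ± 0.18 SE, adjusted p = 0.00407). Every library of the 5 mimics lay below every MC library.

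*Srebf2* was also lower with 5 mimics, by 0.22 to 0.70 on the log2 scale, and was called with Trim AG (-0.70 ± 0.11 SE, adjusted p = 0.000572), as was *Scap* (-0.71 ± 0.13 SE, adjusted p = 0.00134). *Stard4* fell with miR-125b (-1.005 ± 0.34 SE, adjusted p = 0.0238) and Plus A (-1.37 ± 0.31 SE, adjusted p = 0.00360). With Plus A, *Acat2* (-0.64 ± 0.091 SE, adjusted p = 0.000191) and *Acss2* (-0.65 ± 0.11 SE, adjusted p = 0.000594) were called as well. *Elovl6* was called with Trim AG (-1.14 ± 0.37 SE, adjusted p = 0.0247). *Insig1* was 0.08 to 0.48 lower and *Hmgcs1* 0.01 to 0.36 lower, and neither was called.

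Single libraries decided part of these calls. *Stard4* with miR-125b was not called without any one of 3 libraries, with an adjusted p of 0.115 without Hypoxia MC replicate 3, and *Elovl6* without any of 5, with up to 0.0749. For Trim AG against MC 4 members were called without Hypoxia Trim AG replicate 1, *Sqle* (0.58) and *Tm7sf2* (0.52) falling under the fold threshold and *Elovl6* above the adjusted p. For Trim AGU against MC, 2 were called without replicate 2 of Trim AGU or replicate 1 of MC, and 3 without replicate 1 or replicate 3 of Trim AGU. *Acaca* with Trim AGU was -0.07 with all libraries and 0.27 (adjusted p = 0.0252) without Hypoxia Trim AGU replicate 2. The muscle markers moved with these comparisons, with 8 of 9 lower with Trim A, 7 with Plus A and Trim AGU and 6 with miR-125b and Trim AG. Their sums were 4888 to 4971 CPM with MC, 3663 to 4836 CPM with Trim AGU, 3352 to 3429 CPM with miR-125b, 3212 to 3379 CPM with Trim A, 2918 to 3100 CPM with Trim AG and 2909 to 3028 CPM with Plus A. The endothelial marker was called lower with each of the 5 mimics. Of 6 hypoxia markers, 1 to 2 were called lower with each mimic, and with Plus A 6 passed the adjusted p, with sums of 2997 to 3135 CPM with MC and 2112 to 2272 CPM with Plus A. The part of these markers in the results was not tested.

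**Figure D4:**
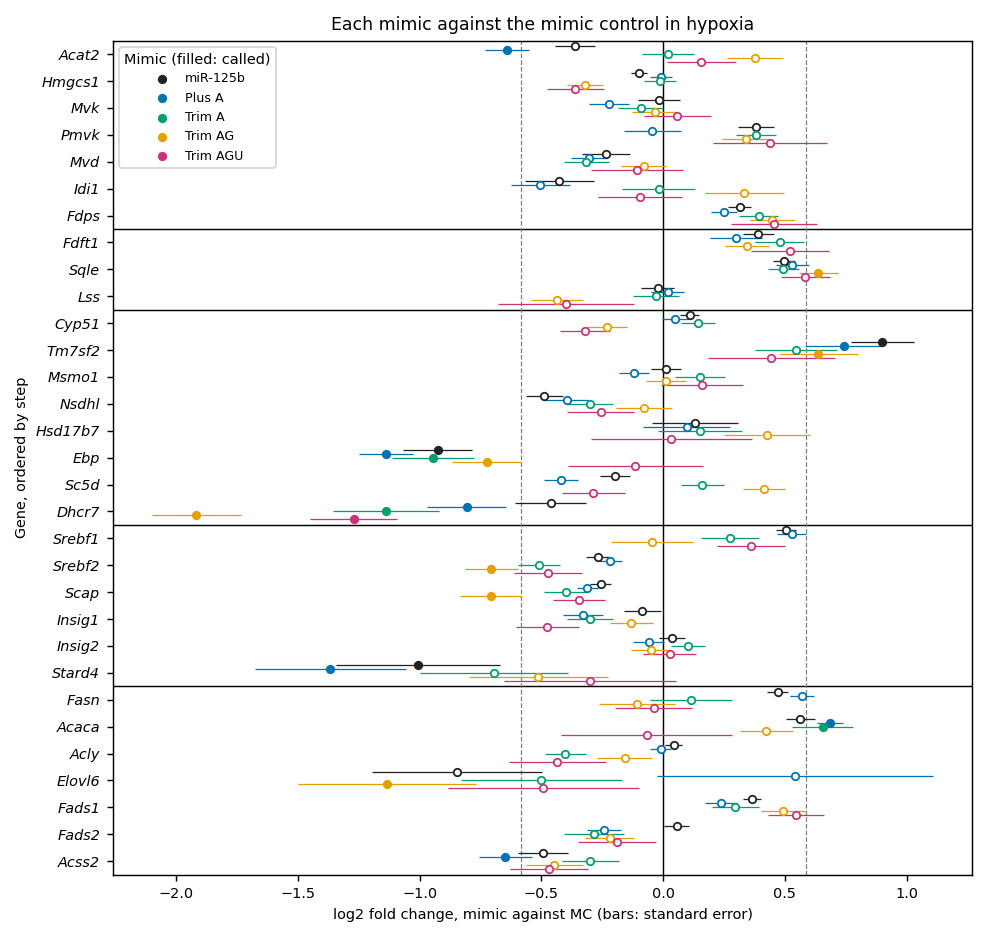
Log2 fold change of each member between a mimic and MC in hypoxia (x axis; points are edgeR estimates, bars standard errors), with dashed lines at 1.5-fold and filled points called. *Sqle*, *Fdft1*, *Fdps* and *Fads1* lie to the right of zero for 5 mimics, *Dhcr7*, *Srebf2*, *Scap* and *Acss2* to the left, and *Dhcr7* reaches -1.92 with Trim AG.

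Of the other lipid lists, read against the 21.9% of all genes called with miR-125b, 4 of 17 mevalonate and sterol genes were higher with miR-125b and 1 was lower. *Pdss1* (0.83 ± 0.13 SE, adjusted p = 0.000213) and *Pdss2* (-0.68 ± 0.086 SE, adjusted p = 4.33e-05), which encode both subunits of the enzyme that makes the ubiquinone side chain, moved in opposite directions. Sterol uptake, transport, storage and efflux had 1 of 16 higher and 5 lower, and *Acsl4*, an acyl-CoA synthetase, was the one called gene of 17 other fatty acid and lipid synthesis genes (0.76 ± 0.039 SE, adjusted p = 3.98e-08).

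The isomiRs were then compared with miR-125b itself in 8 pairs, 4 in hypoxia and 4 in normoxia, at the same dose and time. Each p-value was adjusted over all genes tested, and the pairs of one oxygen condition share the miR-125b libraries. For Plus A, in normoxia 0 members were called between Plus A and miR-125b, and 0 passed an adjusted p of 0.05 in edgeR or were called by DESeq2. At an unadjusted p below 0.05 there was 1, and 0 of 14781 genes (0%) were called. The intervals of the single members ran from -0.36 to 1.81, the upper end set by the sparse *Elovl6*. Without both libraries labelled replicate 1, 0 members were called as well, but 166 of 14856 genes (1.12%) were, so that the count over all genes rests on these libraries. In hypoxia 0 were called against 2.03% of all genes, while 5 passed the adjusted p with no fold threshold (15.9% of all genes), all lower with Plus A. They were *Pmvk* (-0.43 ± 0.12 SE, adjusted p = 0.0365), *Fads2* (-0.30 ± 0.067 SE, adjusted p = 0.0173), *Acat2* (-0.28), *Insig1* (-0.25) and *Sc5d* (-0.23). Without Hypoxia Plus A replicate 3, *Elovl6* was called.

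Trim A, which lacks the last base, also gave 0 calls against miR-125b in hypoxia, where 0.873% of all genes were called. Without regard to fold *Acly* alone passed, against 2.19% of all genes (-0.45 ± 0.082 SE, adjusted p = 0.0390), at 127, 102 and 110 CPM against 150, 159 and 156 CPM. At an unadjusted p below 0.05 there were 9 members, and DESeq2 called 0. Without Hypoxia Trim A replicate 1, *Dhcr7* and *Fasn* were called lower. In normoxia 2 members were called higher with Trim A, against 0.414% of all genes. These were *Acat2*, at 78.2, 74.7 and 80.0 CPM against 45.4, 57.4 and 46.7 CPM (0.65 ± 0.087 SE, adjusted p = 0.0126), and *Stard4*, at 7.76, 6.95 and 6.83 CPM against 4.28, 4.56 and 4.07 CPM (0.75 ± 0.13 SE, adjusted p = 0.0316). Without regard to fold the same count passed, against 1.92% of all genes. Both calls were lost without any one Trim A library, and *Stard4* also without miR-125b replicate 2 or 3. Without the library labelled Normoxia miR-125b replicate 1 both were called (0.59 and 0.74).

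Trim AG, which lacks the last 2 bases, had 3 members higher and 2 lower than miR-125b in hypoxia. These 5 of 31 (16.1%) stood against 19.3% of all genes. With all libraries in 1 fit, 4 were called for Trim AG and 4 for Trim AGU. The 19.3% is from the fit of 2 groups, so the counts of that other fit cannot be read against it. *Idi1* stood at 9.85, 14.3 and 12.2 CPM against 6.26, 7.16 and 8.46 CPM (0.75 ± 0.17 SE, adjusted p = 0.00971). *Acat2* stood at 18.8, 22.5 and 23.4 CPM against 13.6, 13.03 and 12.9 CPM (0.73 ± 0.11 SE, adjusted p = 0.00110), and *Sc5d* at 28.3, 32.7 and 29.6 CPM against 19.9, 20.7 and 19.9 CPM (0.60 ± 0.086 SE, adjusted p = 0.00102). *Dhcr7* was lower by 1.46 ± 0.19 (SE; adjusted p = 0.000705), and *Fasn* was lower at 178, 106 and 139 CPM against 207, 211 and 225 CPM (-0.59 ± 0.15 SE, adjusted p = 0.0163). None of these 5 pairs of groups overlapped, but the members were picked by their call, so this is no added support. With no fold threshold, 12 members passed, against 41.4% of all genes. Without Hypoxia Trim AG replicate 2, the calls of *Sc5d* (0.53) and *Fasn* (-0.43) were lost, and DESeq2 did not call *Fasn*. In the same comparison, *Pdss1* was higher (0.96 ± 0.11 SE, adjusted p = 0.000309), and *Lpin1* (-1.79 ± 0.25 SE, adjusted p = 0.000970) and *Cpt2*, a mitochondrial carnitine palmitoyltransferase (-0.59 ± 0.11 SE, adjusted p = 0.00316), were lower. The muscle markers had 1 of 9 higher and 3 lower, 1 of 6 hypoxia markers was lower and 1 of 2 tested immune markers was higher, and Hypoxia Trim AG was also the deepest group. The part of these in the results was not tested.

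In normoxia 2 members were called higher with Trim AG, 1 of which (*Acat2*) was also called higher in hypoxia. *Stard4* was at 9.35, 8.75 and 8.54 CPM against 4.28, 4.56 and 4.07 CPM with miR-125b (0.999 ± 0.12 SE, adjusted p = 0.000246), and *Acat2* at 76.2, 82.4 and 80.9 CPM against 45.4, 57.4 and 46.7 CPM (0.64 ± 0.087 SE, adjusted p = 0.000502). Of all genes 13.9% were called. *Acat2* was not called without Normoxia miR-125b replicate 1, at 0.58. With no fold threshold 13 members passed, against 38.5% of all genes. *Fads1* (0.42 ± 0.055 SE) and *Fads2* (0.44 ± 0.098 SE) were higher with Trim AG, whereas *Cyp51* (-0.52 ± 0.083 SE), *Fdps* (-0.44 ± 0.060 SE) and *Hmgcs1* (-0.32 ± 0.069 SE) were lower. Of the muscle markers 4 of 9 were higher in this comparison, and their part in it was not tested.

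Trim AGU, which lacks the last 3 bases, gave 0 calls among the members in hypoxia and 3.75% among all genes (0 and 4.15% with no fold threshold). DESeq2 called 1 (*Dhcr7*), and 7 members had an unadjusted p below 0.05. The intervals of the members were wide here, from -1.48 to 1.61, so this does not show that both mimics act alike. Without Hypoxia Trim AGU replicate 2, *Dhcr7* was called, and without replicate 1 *Fasn* was called. In normoxia *Stard4* was at 8.97, 8.76 and 8.85 CPM with Trim AGU (1.03 ± 0.13 SE against miR-125b, adjusted p = 0.000773) and *Ebp* at 23.7, 21.1 and 20.2 CPM against 12.7, 12.5 and 12.1 CPM (0.79 ± 0.10 SE, adjusted p = 0.000747). These 2 were called, with 11.4% of all genes. Without the library labelled Normoxia miR-125b replicate 1 both were also called (*Stard4* at 1.03, adjusted p = 0.00393, and *Ebp* at 0.81, adjusted p = 0.00362), with 9.53% of all genes. At any fold 11 members passed, and 25% of all genes did. *Stard4* in normoxia was thus at 4.51 ± 0.23 CPM (SD, n = 3) with Plus A and 4.30 ± 0.25 CPM with miR-125b, whose libraries overlapped. Without the libraries labelled replicate 1 these means were 4.49 and 4.31 CPM. It was 7.18 ± 0.50 CPM with Trim A, above both, and 8.88 ± 0.42 CPM with Trim AG and 8.86 ± 0.11 CPM with Trim AGU, which overlapped with each other and lay above Trim A. In hypoxia its level was 0.685 to 1.80 CPM in the group means and did not pass the test between any isomiR and miR-125b.

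Whether the signed difference between an isomiR and miR-125b was unequal in hypoxia and normoxia was tested with an interaction term. A called interaction does not by itself mean a larger difference in hypoxia. For Plus A and Trim A 0 members were called, and 0.0193% and 0.605% of all genes were. At an unadjusted p below 0.05 there were 5 and 6 members for these isomiRs, and DESeq2 called 0 and 1 (*Dhcr7*). Without Hypoxia Trim A replicate 1, *Tm7sf2*, *Dhcr7* and *Fads2* were called for Trim A. For Trim AG 4 members were called with a lower value, against 11.3% of all genes. *Dhcr7* was lower by 1.46 with Trim AG in hypoxia and higher by 0.12 in normoxia (interaction -1.59 ± 0.22 SE, adjusted p = 0.000409), *Fads2* had an interaction of -0.74 ± 0.15 SE (adjusted p = 0.00450), *Srebf2* of -0.62 ± 0.13 SE (adjusted p = 0.00572) and *Lss* of -0.60 ± 0.14 SE (adjusted p = 0.00922). *Fdps* went the other way (0.56 ± 0.11 SE, adjusted p = 0.00378), just below the fold threshold. At any fold 8 of 32 tested identifiers (25%) passed, against 22.7% of all genes. Of the muscle markers 5 of 9 were lower and 1 higher in this interaction, with a median of -0.71, and 3 of 6 hypoxia markers were lower. Their part in it was not tested. *Lss* lost its call without any of 5 of the 12 libraries. Without Hypoxia Trim AG replicate 2 or Hypoxia miR-125b replicate 3, 2 members were called, *Dhcr7* and *Fads2*. For Trim AGU *Dhcr7* was called (-1.01 ± 0.21 SE, adjusted p = 0.0459), with 0.966% of all genes, also at any fold. This call was lost without any of 10 of the 12 libraries, and kept without Hypoxia Trim AGU replicate 1, with 6 members called, or replicate 2, with 2 called. The 0.966% is from the fit with all 12 libraries, so the counts with 1 left out cannot be read against it. Without the library labelled Normoxia miR-125b replicate 1, the 4 calls for Trim AG were kept, with values of -1.51 for *Dhcr7*, -0.62 for *Fads2*, -0.60 for *Srebf2* and -0.59 for *Lss*, and 0 members were called for Trim A and for Trim AGU. Without both libraries labelled replicate 1, 0 were called for Plus A.

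**Figure D5:**
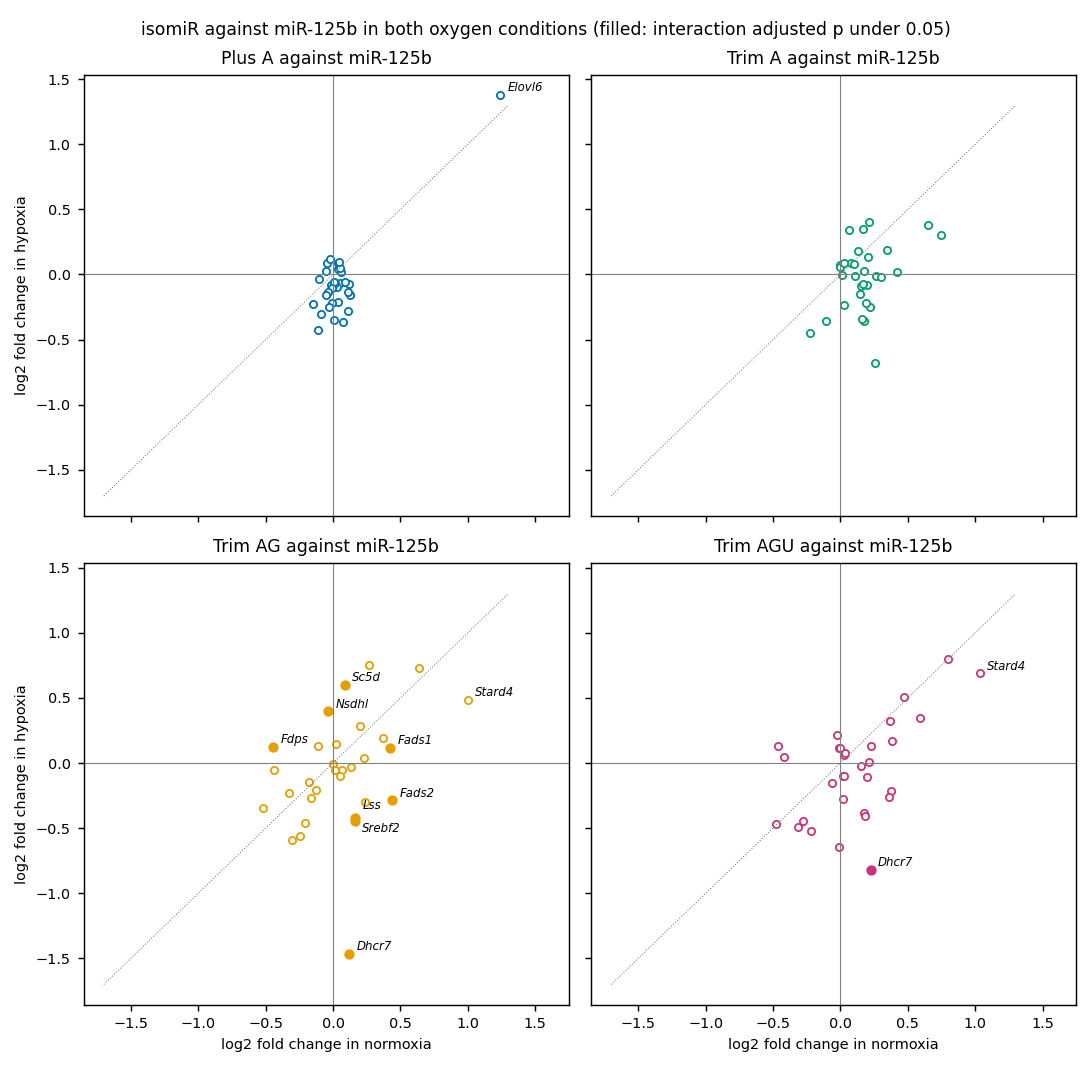
Log2 fold change of each member between an isomiR and miR-125b in normoxia (x axis) and hypoxia (y axis), 1 panel per isomiR, with a dotted line of equal values and filled points where the interaction has an adjusted p under 0.05. Members lie near the origin for Plus A except *Elovl6*, 8 are filled for Trim AG and 1 for Trim AGU, and *Dhcr7* lies far below the line for both.

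For normoxia against MC, the authors gave group means of normalized counts for Plus A and MC, with no values per library and hence no test here. Their mean was higher with Plus A for 26 of 32 identifiers, by at least 1.5-fold for 15 and lower by at least 1.5-fold for 2, with a median ratio of 1.46. Over the 14416 identifiers whose mean over both groups reached 10, which hold these 32, 50.9% were higher, 11.1% by at least 1.5-fold, 11.8% were lower by at least 1.5-fold and the median ratio was 1.01. The group of Plus A includes the library labelled replicate 1, and these means could not be recomputed without it here. For *Fdft1* the authors' means were 2496 with Plus A and 823 with MC, for *Fdps* 9833 and 3957, for *Hmgcs1* 7129 and 2863, and for *Insig1* 2834 and 1317. For *Ebp* they were 366 and 579. In hypoxia the median log2 fold change of the members between Plus A and MC was -0.06. The part of these normoxia levels in the fall under Plus A was not tested.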

How the data were processed

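RNA of H9C2 cells was sequenced by the study from poly-A, non-stranded libraries, 36 in 12 groups. The submitters' processing notes name HISAT2 and StringTie without versions, and the counting tool and genome build are not given in the sources used here. The authors deposited 12 tables, 11 of which hold raw counts and FPKM values (counts scaled by gene length and library total) for 33 libraries. The remaining table, on Plus A and MC in normoxia, holds the authors' mean expression signal per group. Fold changes and p-values of the authors' own DESeq2 test were not used. Tables were joined by gene identifier with Python 3.11.15 and pandas 2.3.3. The same library's counts conflicted between tables for 0 genes, and a gene left out of a table, which had at most 1 count where it was listed, was set to 0.

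The groups of each comparison were modelled over all genes in R 4.3.3 by edgeR 4.0.16 (TMM, filterByExpr, quasi-likelihood test), in 18 comparisons and 4 interactions, with Benjamini-Hochberg adjustment over all genes tested. The standard error was taken as the absolute log2 change divided by √F, and intervals are 95%. The fit was tested on simulated data. Alternatives were DESeq2 1.42.0, its size factors, no filter, a block for the replicate number, one model of all libraries, no fold threshold and each library left out. The fit without both normoxia libraries labelled replicate 1, and the count without these and Hypoxia Trim AGU replicate 2, were chosen after seeing the data. The members, lists and tests were chosen with earlier results of these data known. All members are named, and of the other lipid lists the called gene with the highest or lowest change in 3 comparisons. Some of the tested genes are left out of the text. Libraries of a group were further apart than counting error alone gives (chi-square per gene of 4.97 to 236). At totals of 28361216 to 42672584 counts, library-to-library spread, not counting error, sets the error of most values. Promoters and the miRNA came from RefSeq (GRCr8), and figures were drawn with matplotlib 3.10.9.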

Additional observations from a re-analysis of the deposited data

Results flagged for a closer look

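For 9 pairs of a member and an isomiR, the difference from miR-125b itself differed between hypoxia and normoxia in edgeR's interaction test (adjusted p below 0.05). For Trim AG these were 8 of 32 identifiers (25%), close to the 22.7% of all genes, and for Trim AGU 1, with 0.966% of all genes. With Trim AG the interaction, given as the log2 difference in hypoxia minus that in normoxia, was -1.59 for *Dhcr7*, -0.74 for *Fads2*, -0.62 for *Srebf2*, -0.60 for *Lss* and -0.32 for *Fads1*, and 0.56 for *Fdps*, 0.50 for *Sc5d* and 0.42 for *Nsdhl*. With Trim AGU it was -1.01 for *Dhcr7*. The signs were mixed among genes of one pathway. Hypoxia Trim AG was the deepest group, at 39940087 to 42672584 counts, and in its interaction 5 of 9 muscle markers and 3 of 6 hypoxia markers were lower and 1 muscle marker was higher. The part of these in the values was not tested. Without the library labelled Normoxia miR-125b replicate 1, 0 members were called for Trim AGU.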

How the results depend on the processing

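The counts of members lower in hypoxia than in normoxia moved by less than 1.5 times under each alternative that was run. With each library left out in turn they were 20 to 24 under Trim AGU, 23 to 25 under Trim AG, 23 to 24 under Trim A, 24 to 25 under Plus A and 22 to 24 under miR-125b. The counts against MC and between isomiRs were small and less stable. With each library left out, they ranged against MC in hypoxia from 1 to 3 with Trim AGU, 4 to 7 with Trim AG, 3 to 4 with Trim A, 6 to 9 with Plus A and 2 to 4 with miR-125b. Against miR-125b in hypoxia, Trim AGU had 0 to 1, Trim AG had 3 to 7, Trim A had 0 to 2 and Plus A had 0 to 1. In normoxia, Trim AGU had 2 to 3, Trim AG had 1 to 3 and Trim A had 0 to 2. In the interactions, Trim AGU had 0 to 6, Trim AG had 2 to 6 and Trim A had 0 to 3. Without both normoxia libraries labelled replicate 1, a choice made after seeing the data, 1 was called for Trim AG against miR-125b in normoxia and 0 for the Trim AGU interaction.

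With no fold threshold, 6 members passed with Trim AGU, 18 with Trim AG, 15 with Trim A, 22 with Plus A and 21 with miR-125b against MC in hypoxia. Against miR-125b, 12 passed with Trim AG, 1 with Trim A and 5 with Plus A in hypoxia, 13 with Trim AG and 11 with Trim AGU in normoxia, and 8 in the Trim AG interaction. DESeq2 called 2 for Trim AGU against MC, 1 in hypoxia for Trim AGU against miR-125b and 1 for the Trim A interaction, and edgeR with DESeq2 size factors called 2 for Trim AGU against MC. With all libraries in 1 fit, against miR-125b in hypoxia 4 were called for Trim AGU and 1 for Trim A, 1 for Trim A in normoxia and 5 for the Trim AGU interaction. With no filter on low counts the Trim AGU interaction had 0. The shares of all genes under the settings of this section are not given here, so the counts show stability only. The causes of these shifts were not tested. *Acaca* with Trim AGU against MC changed sign to 0.27 without Hypoxia Trim AGU replicate 2, and ranged from -0.32 to 0.27 with each library left out.

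Replicate numbers did not pair the samples, since deviations of same-numbered libraries correlated at -0.16 to 0.074. With the replicate block 1 member was called for Trim A in normoxia and 0 for the Trim AGU interaction, and no other count moved by over 1.5 times.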
